A study of Mus musculus with 3 samples.

Results

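The 8 genes described here (Cldn5, Cdh5, Ocln, Tjp1, Abcb1a, Slco1a4, Mfsd2a and Ly6c1) are genes of the blood-retina barrier, taken by name from the 18545 genes of a single-cell RNA-seq matrix of the mouse retina, and all 8 were measured. They were read in cluster 11, the endothelial-like cluster of the deposited clustering, which held 393 of 15242 cells, and were set against the other 20 clusters and compared by library. All mice were of the C57BL/6J strain, 8 weeks old and reared in darkness. WT retinas came from wild-type mice on the base chow, rd10-vehicle retinas from rd10 mice on the same chow, and rd10-TMB retinas from rd10 mice on this chow with tamsulosin, metoprolol and bromocriptine, which are an alpha-1 adrenergic blocker, a beta-1 adrenergic blocker and a dopamine D2-like receptor agonist. In rd10 mice a point mutation of Pde6b, which encodes a subunit of the rod phosphodiesterase, leads to the loss of rods and later of cones. Each group was 1 pooled library. Per the labels retinas of 4 mice were pooled in each, whereas the methods of the study give fewer mice for the rd10 groups, and the rd10 mice were female while both sexes were pooled for WT.

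Since a group was a single library, replicates were lacking, no test between groups was possible and no p-value is given. Expression is the number of unique molecular identifiers (UMIs) of a gene per 1000000 UMIs of the same cells (CPM). All intervals are exact 95% counting intervals. A difference that exceeds them separates the pools of cells that were sequenced, and whether the genotypes or treatments differ was not tested. The libraries held 4478, 5952 and 4812 cells with medians of 3509.5, 4812 and 4772 UMIs per cell for WT, rd10-vehicle and rd10-TMB, and values are given in this order throughout.

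The inner blood-retina barrier is formed by the endothelial cells of the retinal capillaries. Tight junctions close the space between the cells, few vesicles cross them, and transporters on both faces decide which solutes pass. Wnt and Norrin signalling through Fzd4 maintains this state, and pericytes, the mural cells of capillaries, contribute to it. Cldn5 encodes the main tight-junction claudin of such endothelium, Cdh5 the adherens-junction cadherin of endothelial cells, Ocln the tight-junction protein occludin and Tjp1 the junction scaffold ZO-1. Abcb1a encodes the efflux pump P-glycoprotein, Slco1a4 an organic anion transporter, and Mfsd2a a lysophospholipid transporter that carries docosahexaenoic acid and keeps vesicle traffic low. Ly6c1 encodes a small surface protein that marks brain and retinal capillary endothelium in mice.

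In the mm10 build (GRCm38), the genes lie on 8 chromosomes. Cldn5 spans chr16:18776847-18778262 and Cdh5 chr8:104101613-104144504, both on the plus strand. Ocln spans chr13:100496504-100552718 and Tjp1 chr7:65296165-65527850, both on the minus strand. Abcb1a spans chr5:8567091-8748575 on the plus strand. Slco1a4 spans chr6:141805438-141856284, Mfsd2a chr4:122946850-122961194 and Ly6c1 chr15:75044018-75048920, all on the minus strand. Abcb1a and Ly6c1 each have a near copy close by, Abcb1b at chr5:8798147-8866314 and Ly6c2 at chr15:75108161-75112066. Of the 50-base words in the last 600 bases of Ly6c1 coding transcripts, 22.2% also occur in Ly6c2 and 8.19% in Ly6a, so part of the Ly6c1 reads cannot be assigned with certainty. For Abcb1a against Abcb1b the share was 0%, and Ly6c2 was not analysed here.

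The RefSeq promoter table for GRCm38.p6 matched 7 of the 8 genes. The 250 bases upstream of the RefSeq start site are shown for 4 of them, chosen because their transcripts were distributed differently over the retina: Cldn5 was read almost only in cluster 11, Slco1a4 in cluster 11 and in pigment epithelium-like cells, Mfsd2a also in Müller glia-like cells of rd10 libraries, and Tjp1 in every cluster with 10 or more cells of a library. Each runs 5′ to 3′ on the strand of its gene. The windows are chr16:18776597-18776846 for Cldn5, chr6:141856221-141856470 for Slco1a4, chr4:122961189-122961438 for Mfsd2a and chr7:65371245-65371494 for Tjp1. The Tjp1 window lies within the span of the gene, upstream of an internal start site, and those of Slco1a4 and Mfsd2a overlap the 5′ ends of the spans. Capitals mark matches, on either strand, to the letters GGAAG (the core of ETS sites), ACAAT (SOX), CTTTGA (TCF/LEF) and GGGCGG (the GC box).
Cldn5: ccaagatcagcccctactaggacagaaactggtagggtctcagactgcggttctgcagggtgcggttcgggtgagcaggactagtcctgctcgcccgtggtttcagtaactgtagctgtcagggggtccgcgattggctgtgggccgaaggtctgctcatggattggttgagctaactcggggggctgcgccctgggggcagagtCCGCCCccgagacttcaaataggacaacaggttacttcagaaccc
Slco1a4: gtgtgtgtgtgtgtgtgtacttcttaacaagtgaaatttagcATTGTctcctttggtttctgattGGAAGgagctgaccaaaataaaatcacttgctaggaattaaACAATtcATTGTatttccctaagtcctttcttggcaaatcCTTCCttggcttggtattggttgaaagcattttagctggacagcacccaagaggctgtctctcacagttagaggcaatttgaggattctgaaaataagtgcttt
Mfsd2a: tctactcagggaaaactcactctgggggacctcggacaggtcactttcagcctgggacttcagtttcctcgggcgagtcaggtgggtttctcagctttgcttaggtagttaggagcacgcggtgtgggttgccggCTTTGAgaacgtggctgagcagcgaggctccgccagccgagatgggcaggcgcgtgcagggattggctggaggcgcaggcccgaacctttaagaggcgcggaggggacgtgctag
Tjp1: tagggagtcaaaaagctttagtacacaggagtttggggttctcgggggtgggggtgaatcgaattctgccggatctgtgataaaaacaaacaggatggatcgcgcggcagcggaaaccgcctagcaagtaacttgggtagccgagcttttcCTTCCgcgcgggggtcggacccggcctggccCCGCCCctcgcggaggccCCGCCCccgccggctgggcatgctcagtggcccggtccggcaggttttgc

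The windows differed in base composition. The Slco1a4 window had 39.2% G and C and 0 CpG, as had that of Abcb1a (40.4%, 0 CpG). Those of Cldn5, Mfsd2a and Tjp1 had 12, 17 and 22 CpG, against a median of 6 over 32851 windows of the same length. The Slco1a4 window held 3 matches to ACAAT and 2 to GGAAG, Tjp1 1 to GGAAG and 2 to GGGCGG, Mfsd2a 1 to CTTTGA and Cldn5 1 to GGGCGG. Such short words are frequent: GGAAG occurred in 64.1% of all windows, ACAAT in 27.7%, CTTTGA in 13.8% and GGGCGG in 32.7%. A match is a description of the letters and not a bound site. The Mfsd2a window overlaps an exon of the gene 4933421A08Rik in GENCODE vM21.

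Cluster 11 was checked against its label before the members were compared. It was endothelial-like, since 15 of 16 endothelial markers (none of them a member) reached 20 CPM there and were at least 2-fold higher than in the rest of the cells. Its cells were of more than 1 kind, however. In WT 91 of 137 cells carried UMIs of 3 or more endothelial markers (66.4%, 57.9 to 74.3%), compared with 149 of 156 in rd10-vehicle (95.5%, 91.0 to 98.2%) and 92 of 100 in rd10-TMB (92.0%, 84.8 to 96.5%). The remaining 46, 7 and 8 cells had at most 2 endothelial markers, whereas each of the others had at least 6. No cell had 3 to 5, and 1 rd10-vehicle cell, with 2, lay just below the limit.

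**Figure D1:**
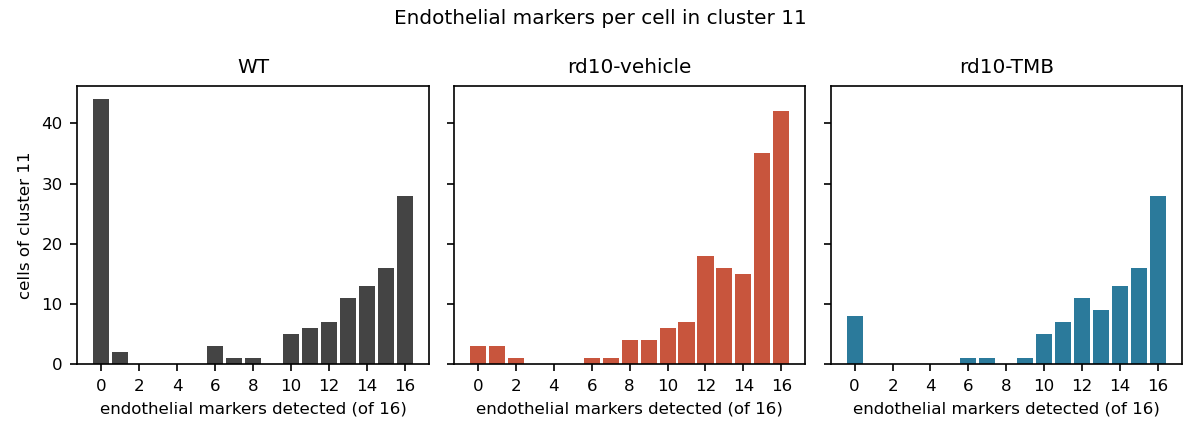
Number of the 16 endothelial markers with a UMI in each cell of cluster 11 (horizontal axis) against the number of cells (vertical axis), by library. In WT 44 cells had none of the markers and in each library no cell lay between 3 and 5 markers.

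The cells with at most 2 endothelial markers carried those of bipolar cells, the neurons that relay photoreceptor signals. Of them 45 of 46, 6 of 7 and 7 of 8 had UMIs of at least 3 of 10 OFF cone bipolar markers. Neto1, a kainate receptor auxiliary subunit on that list, had 275, 32 and 39 UMIs in them and 1, 0 and 0 in the endothelial-marker cells. Otor, Erbb4 and Fezf1 of the same list had 0 UMIs in these cells. The summed list was 2541, 2378 and 3026 CPM, that of ON cone bipolar cells 2103, 2578 and 2708 CPM and that of rod bipolar cells 834, 1318 and 1720.2 CPM, so the lists did not settle the kind of bipolar cell. These cells held 20.3%, 1.93% and 2.50% of the UMIs of cluster 11. Among them Cldn5, Cdh5, Abcb1a and Ly6c1 had 0 UMIs in every library (3 UMIs, which a count of 0 allows, would be 10.6, 85.9 and 95.6 CPM), Ocln 2, 0 and 0, Slco1a4 1, 0 and 0, Mfsd2a 0, 1 and 0, and Tjp1 15, 0 and 4. In CPM of the whole cluster the endothelial genes of WT were thus divided by more RNA of other cells than those of the rd10 libraries. For this reason the members are given both for the whole of cluster 11, as clustered, and for the endothelial-marker cells alone.

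The endothelial-marker cells in turn differed in their content of mural transcripts. Mural-low cells, with at most 3 of 12 mural markers, numbered 47, 39 and 27, which is 51.6%, 26.2% and 29.3% of the endothelial-marker cells. Mural-rich cells, with at least 7, numbered 40, 93 and 59 (44.0%, 62.4% and 64.1%). The summed mural list was 915, 1297 and 1478 CPM in the former and 12054, 11989 and 11908 CPM in the latter. The median depth was 4637, 5430 and 4284 UMIs per cell in mural-low and 14835, 13479 and 13535 in mural-rich cells, and a shallow cell shows fewer markers. Erythrocyte transcripts, such as those of haemoglobin, summed to 0, 1 and 1 UMIs in mural-low cells and to 1085, 5734 and 3546 UMIs in mural-rich cells. Rod markers summed to 599, 245 and 459.8 CPM in the endothelial-marker cells and to 625, 275 and 936 CPM in the mural-low cells. These sets were defined after the data had been seen, and the part of mural, red cell or rod RNA in the differences below was not tested.

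All 8 genes were at least 2-fold higher in cluster 11 than in the rest of the cells in every library, which was true of 10.5% of the 14302 genes with enough UMIs. No test was made of this, since the clusters had been formed on the same cells. Cdh5 was the most restricted, with 2, 9 and 2 UMIs outside cluster 11 against 572, 771 and 546 inside it. For Cldn5, Abcb1a, Slco1a4 and Ly6c1 between 97.0% and 99.6% of a library's UMIs lay in cluster 11, and for Ocln between 91.6% and 93.9%. In the rod-like cluster 1, which should lack them, UMIs of the members other than Tjp1 were found in at most 0.719% of cells of any library, at median depths of 1406 to 1536 UMIs.

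**Figure D2:**
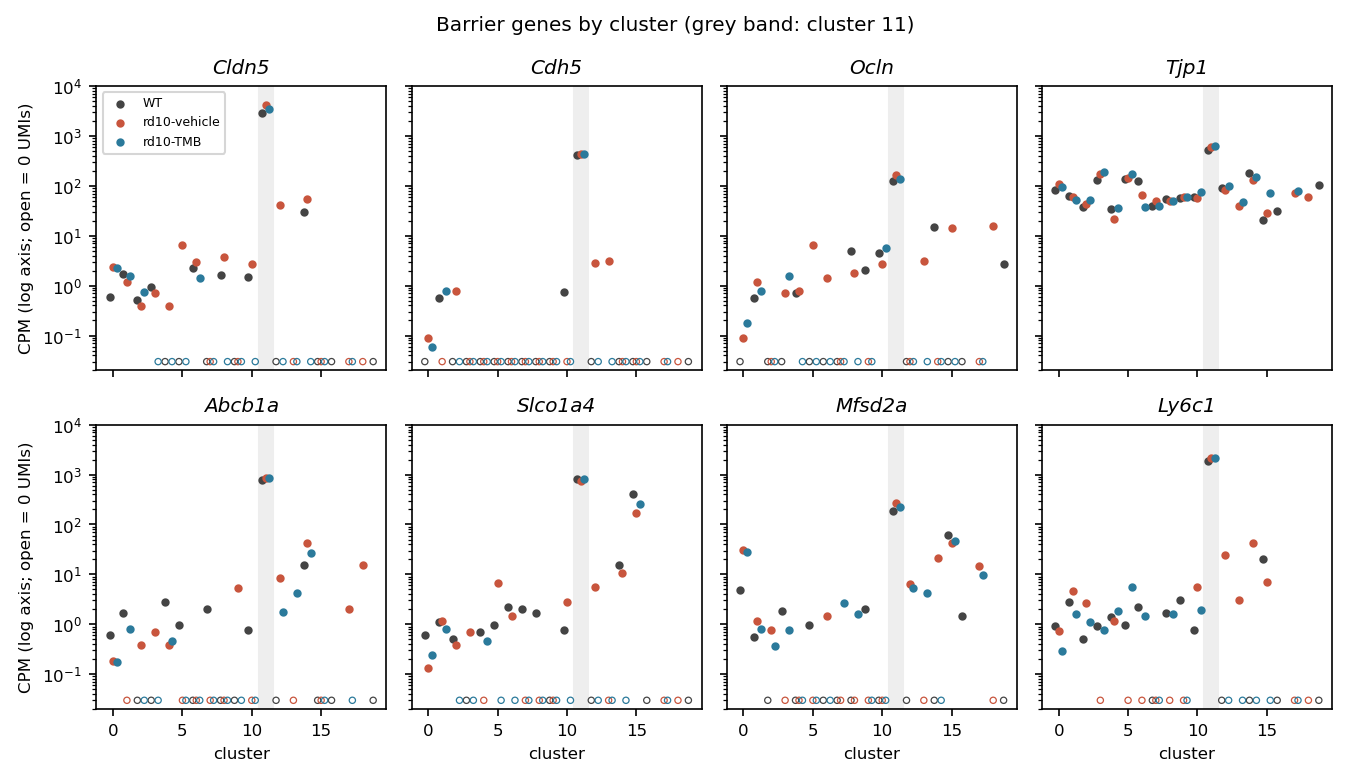
CPM of each gene (vertical log axis) in each cluster with 10 or more cells in a library (horizontal axis), by library. Open points at the foot have 0 UMIs. Cluster 11 lies in the grey band; Tjp1 is spread over all clusters, Mfsd2a stands up in cluster 0 of the rd10 libraries and Slco1a4 in cluster 15.

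Tjp1 was the exception in breadth: 35.1%, 24.6% and 25.1% of its UMIs lay in cluster 11. Its level was 514, 592 and 639 CPM there and 75.9, 92.8 and 85.7 CPM in the rest of the cells. In the Müller glia-like cluster 0 it was 81.9, 109.6 and 96.1 CPM, higher in rd10-vehicle than in WT by 0.42 on the log2 scale (0.24 to 0.61). In the cone-like cluster 4 it was 33.7, 21.4 and 35.4 CPM, lowest in rd10-vehicle (-0.66, -1.24 to -0.06, over WT). Clusters 3 and 6, left without a name, went in opposite directions. In cluster 3 it was 129, 169 and 188 CPM (0.39, 0.09 to 0.71, for rd10-vehicle over WT), and in cluster 6 it was 122, 64.0 and 37.4 CPM (-0.91, -1.47 to -0.41), with -0.75 (-1.53 to -0.04) for rd10-TMB over rd10-vehicle.

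Slco1a4 was also read in the retinal pigment epithelium-like cluster 15, the cells of the outer blood-retina barrier. Its UMIs numbered 20 in 13 cells of WT, 24 in 35 of rd10-vehicle and 11 in 16 of rd10-TMB, or 415, 172 and 260.3 CPM. These cells were few, and the intervals are wide. Cldn5 was detected in 0 of these 64 cells, which, at 3 counts of the total, allows up to 4.69% of cells with a UMI.

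Mfsd2a was read mostly in cluster 11 in WT, where it held 90.6% of the UMIs of the gene, whereas the share was 41.5% and 37.6% in the rd10 libraries. Outside cluster 11 its UMIs numbered 27, 699 and 474. Most of these came from Müller glia-like cells, the radial glia of the retina, with 16, 670 and 462 UMIs. The level there was 4.82 (2.75 to 7.83), 30.2 (27.9 to 32.6) and 27.5 (25.1 to 30.2) CPM. Both rd10 libraries were thus above WT without overlap of the intervals, while they overlapped each other. The log2 ratio of rd10-vehicle over WT was 2.56 (1.94 to 3.46), whereas 9.78% of the 13871 genes tested in these cells were at least 1.5-fold higher. That of rd10-TMB over rd10-vehicle was -0.13 (-0.31 to 0.04).

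The share of Müller glia-like cells with a Mfsd2a UMI was 2.83%, 19.0% and 19.5%. After each cell had been thinned to 1000 UMIs it was 0.759% (0.207 to 1.93%), 2.83% (2.21 to 3.56%) and 2.43% (1.76 to 3.27%). Cldn5, a more abundant transcript of cluster 11, was at 0.602, 2.34 and 2.21 CPM in the same cells. Mfsd2a and Cldn5 had 496 and 7615 UMIs in cluster 11 of rd10-vehicle but 670 and 52 in cluster 0, so their ratio differed between the clusters. Of the members only Tjp1 had a higher level than Mfsd2a in the Müller glia-like cells of the rd10 libraries.

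In 3 cells outside cluster 11 at least 3 of the 7 members other than Tjp1 were detected together, all in rd10-vehicle. They lay in clusters 0, 12 and 14. The cell in the astrocyte-like cluster 12 held 53 of the 57 Cldn5 UMIs of that cluster. WT and rd10-TMB had 0 such cells.

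In the whole of cluster 11, 7 of the 8 genes had a higher CPM in rd10-vehicle than in WT, with a median log2 ratio of 0.20, against -0.04 over all 10203 genes tested. None reached 1.5-fold, compared with 8.23% of all genes that were at least 1.5-fold higher and 16.4% at least 1.5-fold lower. In the endothelial-marker cells only 3 of 8 were higher and 5 were lower, with a median of -0.09 against -0.02 over 9467 genes. Again none reached 1.5-fold, where 7.40% of all genes were that much higher and 8.32% lower. The median thus changed sign with the removal of the bipolar cells. For rd10-TMB over rd10-vehicle, in the endothelial-marker cells, 4 genes were higher and 4 lower, with a median of 0.02 and none at 1.5-fold (5.68% of all genes higher, 6.55% lower). For rd10-TMB over WT all 8 were higher in the whole cluster, with a median of 0.18. In the endothelial-marker cells, in contrast, 7 of 8 were lower, with a median of -0.11. Over all genes these medians were -0.06 and -0.03, and over the 16 endothelial markers 0.11 and -0.18. No member reached 1.5-fold in the whole cluster (8.04% of all genes higher, 16.5% lower) or in the endothelial-marker cells (7.32% and 8.87%). The 3 comparisons share their libraries and are not independent of each other.

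**Figure D3:**
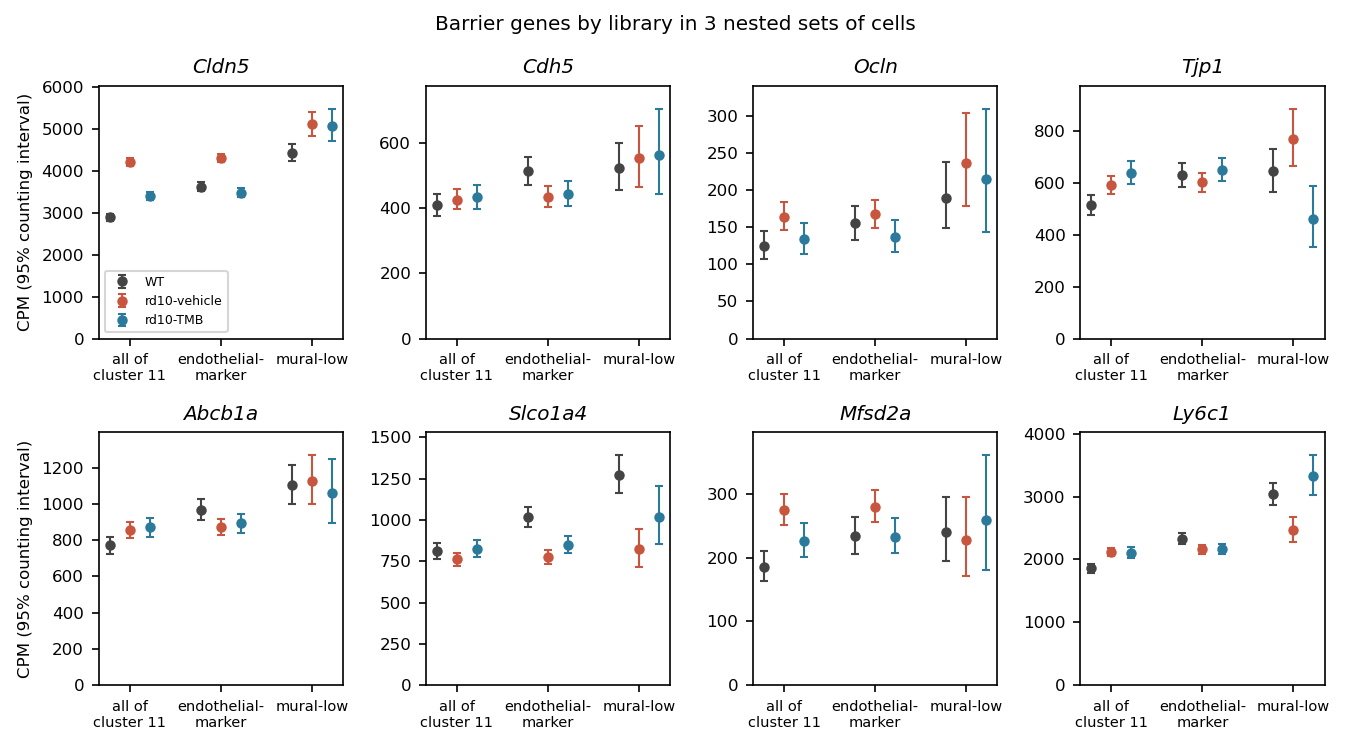
CPM of each gene (vertical axes from 0) by library in all of cluster 11, its endothelial-marker cells and the mural-low cells among these. Points are sums over the cells of 1 library and bars are 95% counting intervals. Cldn5 in WT moves from 2892 to 3626 CPM when cells without endothelial markers are left out.

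Of the 4 junction genes all had a ratio of rd10-vehicle over WT above 0 in the whole cluster and in the mural-low cells, whereas in the endothelial-marker cells Cldn5 and Ocln were above 0 and Cdh5 and Tjp1 below. Cldn5 was at 2892, 4220.3 and 3397 CPM in the whole cluster and at 3626 (3515 to 3740), 4304 (4207 to 4401) and 3484 (3380 to 3589.7) CPM in the endothelial-marker cells. It was highest in rd10-vehicle in both, and WT and rd10-TMB were close once the bipolar cells were left out. In the endothelial-marker cells the log2 ratio was 0.25 (0.19 to 0.30) for rd10-vehicle over WT and -0.30 (-0.36 to -0.25) for rd10-TMB over rd10-vehicle. All endothelial-marker cells of the 3 libraries held Cldn5 UMIs, and the median cell had 3544, 4063 and 3591 CPM.

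Among mural-low cells Cldn5 was at 4436, 5118 and 5086 CPM. There rd10-vehicle was again above WT (log2 ratio 0.21, 0.10 to 0.31), but rd10-TMB was not below it (-0.01, -0.14 to 0.13). In the mural-rich cells the levels were 3188, 4066 and 3203 CPM, with ratios of 0.35 (0.28 to 0.42) and -0.34 (-0.41 to -0.28). The lower Cldn5 in rd10-TMB was thus seen in the mural-rich cells and not in the mural-low cells, a difference that was not itself tested.

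Cdh5 was at 409.7, 427 and 434 CPM in the whole cluster and at 514 (473 to 558), 436 (406 to 468) and 445 (409 to 484) CPM in the endothelial-marker cells. In the latter both rd10 libraries were below WT, with a log2 ratio of -0.24 (-0.40 to -0.08) for rd10-vehicle over WT and 0.03 (-0.13 to 0.19) for rd10-TMB over rd10-vehicle. In mural-low cells the levels were 525, 555 and 564 CPM, with overlapping intervals, and the sign was the opposite (0.08, -0.24 to 0.40).

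Ocln had the fewest UMIs of the members, 172, 296 and 168 in the endothelial-marker cells. Its level was 125, 164 and 134 CPM in the whole cluster, with log2 ratios of 0.39 (0.12 to 0.68) for rd10-vehicle over WT and -0.29 (-0.58 to -0.02) for rd10-TMB over rd10-vehicle. In the endothelial-marker cells it was at 155 (132 to 179), 167 (149 to 187) and 137 (117 to 159) CPM. The intervals of the 3 libraries overlapped. There the ratio of rd10-vehicle over WT was 0.11 (-0.16 to 0.39), while that of rd10-TMB over rd10-vehicle was -0.28 (-0.57 to -0.01).

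Tjp1 was at 631, 604 and 652 CPM in the endothelial-marker cells, a log2 ratio of -0.06 (-0.20 to 0.08) for rd10-vehicle over WT and 0.11 (-0.02 to 0.25) for rd10-TMB over rd10-vehicle. Neither was beyond counting error. In the whole cluster, with the levels given above, the ratios were 0.20 (0.07 to 0.34) and 0.11 (-0.02 to 0.24). Among mural-low cells it was at 646 (568 to 731), 770.4 (666 to 887) and 460.3 (353 to 590.1) CPM, and rd10-TMB was below rd10-vehicle by -0.73 (-1.18 to -0.32). This value rests on 62 UMIs in 27 rd10-TMB cells, and in the mural-rich cells the ratio was 0.19 (0.04 to 0.34), with the opposite sign. Tjp1 was the 1 member past 1.5-fold in that comparison of mural-low cells, in which 9.81% of 3220 genes were at least 1.5-fold higher and 14.9% lower.

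Among the transporters Abcb1a was at 772, 857 and 871 CPM in the whole cluster and at 968 (911 to 1028), 874 (831 to 919) and 894 (841 to 948) CPM in the endothelial-marker cells. The log2 ratio of rd10-vehicle over WT was 0.15 (0.04 to 0.26) in the former and -0.15 (-0.26 to -0.03) in the latter, a change of sign. Mural-low levels were 1104, 1129.7 and 1062 CPM and did not differ beyond their intervals. The ratio of rd10-TMB over rd10-vehicle was 0.03 (-0.08 to 0.14) in the endothelial-marker cells. Abcb1b, the second P-glycoprotein gene of mice, had 1, 2 and 2 UMIs in cluster 11 against 1078, 1547 and 1096 of Abcb1a. Outside it the order was the reverse, with 70, 228 and 127 UMIs of Abcb1b and 14, 30 and 9 of Abcb1a, and the cone-like cluster 4 held 38, 43 and 34 of the former.

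Slco1a4 had the lowest ratio of rd10-vehicle over WT among the members in the whole cluster, the endothelial-marker cells and the mural-low cells, but not in the mural-rich cells, where Cdh5 was lower (-0.33, -0.53 to -0.14). In the endothelial-marker cells it was at 1018 (959 to 1079), 776 (735 to 818) and 848 (797 to 901) CPM. Both rd10 libraries were below WT without overlap of the intervals. The log2 ratio was -0.39 (-0.51 to -0.28) for rd10-vehicle over WT, -0.26 (-0.39 to -0.14) for rd10-TMB over WT and 0.13 (0.01 to 0.25) for rd10-TMB over rd10-vehicle. The median cell held 968, 699.7 and 822 CPM, and 98.9%, 98.7% and 97.8% of the cells held a UMI.

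The ratio of Slco1a4 was lower among mural-low cells, with 1274 (1164 to 1391), 826 (718 to 947) and 1017 (854 to 1203) CPM and a ratio of -0.62 (-0.87 to -0.39) for rd10-vehicle over WT. This was the 1 member past 1.5-fold in these cells, where 11.6% of 4791 genes were at least 1.5-fold higher and 12% lower. Glial markers had the same order in these cells. The Müller glia list summed to 3575, 2299 and 3178 CPM, with 11, 10 and 9 of 11 markers present, Kcnj10 at 0 in both rd10 libraries and Vim or Apoe the most abundant. The astrocyte list summed to 241, 112 and 134 CPM, mostly Fam107a, with Pax2 and Gfap at 0. In the mural-rich cells Slco1a4 was at 849.7, 766 and 803 CPM, with a ratio of -0.15 (-0.30 to -0.00), and there the Müller glia list was at 1813, 2266 and 2649 CPM, lowest in WT, and the astrocyte list at 155, 92.8 and 99.1 CPM. The part of glial RNA in these values was not tested. In the whole of cluster 11 the levels were 812, 761 and 827 CPM and the ratio was -0.09 (-0.21 to 0.02), within counting error.

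Mfsd2a was at 186, 275 and 227 CPM in the whole cluster and at 234 (206 to 264), 279.7 (256 to 306) and 233 (207 to 262) CPM in the endothelial-marker cells, highest in rd10-vehicle. Its log2 ratio of rd10-vehicle over WT was 0.56 (0.34 to 0.78) in the former and 0.26 (0.04 to 0.48) in the latter. For rd10-TMB over rd10-vehicle it was -0.26 (-0.48 to -0.05) in the endothelial-marker cells. Mural-low cells gave 94, 57 and 35 UMIs, and their levels of 241, 228 and 259.9 CPM had overlapping intervals. The ratio of 2.56 in the Müller glia-like cells lay outside these intervals.

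Ly6c1 was at 1857, 2122 and 2109 CPM in the whole cluster and at 2329 (2240.4 to 2421), 2163 (2095 to 2233) and 2163 (2081 to 2247) CPM in the endothelial-marker cells. Its log2 ratio of rd10-vehicle over WT was 0.19 (0.12 to 0.26) in the former and -0.11 (-0.18 to -0.03) in the latter. Its mural-low level was 3044 (2874 to 3222), 2475 (2284 to 2678) and 3334 (3033 to 3657) CPM, lowest in rd10-vehicle, with ratios of -0.30 (-0.44 to -0.16) and, for rd10-TMB over rd10-vehicle, 0.43 (0.25 to 0.61). In the mural-rich cells these ratios were 0.12 (0.03 to 0.21) and -0.08 (-0.17 to -0.00).

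**Figure D4:**
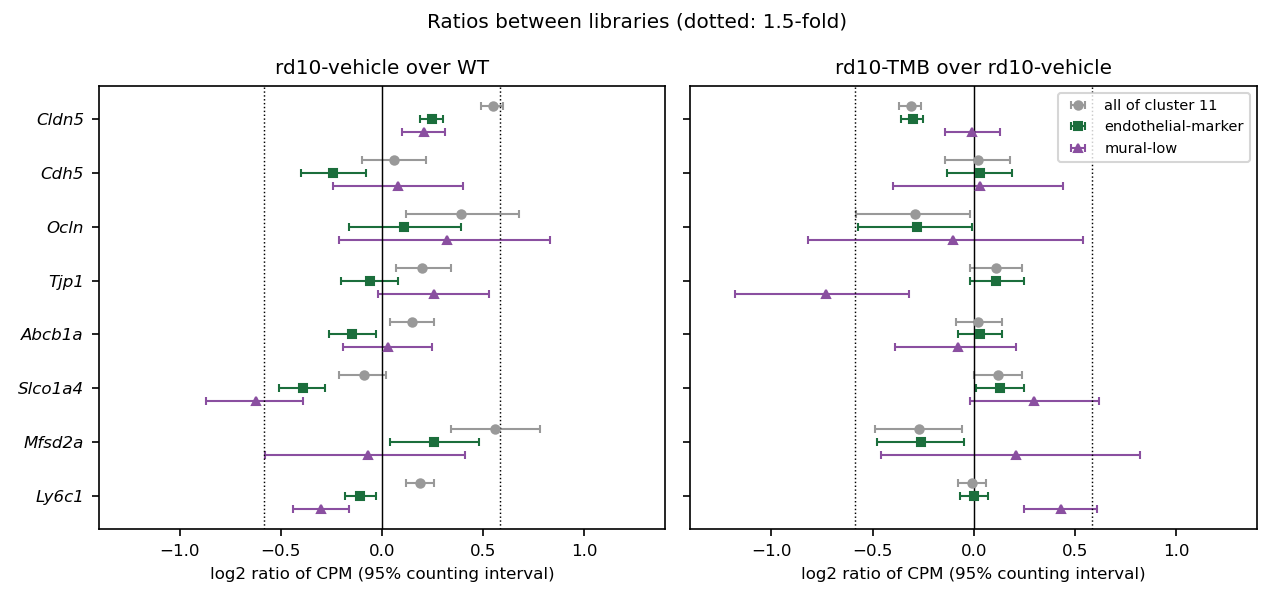
Log2 ratio of CPM (horizontal axis) for each gene in the 3 nested sets of cells, for rd10-vehicle over WT on the left and rd10-TMB over rd10-vehicle on the right. Bars are 95% counting intervals and dotted lines mark 1.5-fold. For Abcb1a and Ly6c1 the ratio on the left lies above 0 in all of cluster 11 and below 0 in the endothelial-marker cells, with both intervals clear of 0.

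The members were also set against the sum of the 16 endothelial markers, an alternative added after the data had been seen, which divides by endothelial RNA alone. Per 100 endothelial marker UMIs of cluster 11, Cldn5 had 30.5, 41.0 and 33.4 UMIs and Mfsd2a 1.96, 2.67 and 2.23, both highest in rd10-vehicle. Slco1a4 had 8.57, 7.40 and 8.13, lowest in rd10-vehicle. Abcb1a had 8.14, 8.33 and 8.56, Cdh5 4.32, 4.15 and 4.27, Ly6c1 19.6, 20.6 and 20.7, Ocln 1.31, 1.59 and 1.31 and Tjp1 5.42, 5.75 and 6.28. Cldn5 and Mfsd2a were likewise highest and Slco1a4 lowest in rd10-vehicle in the endothelial-marker cells. The place of rd10-TMB differed for Cldn5 and Mfsd2a. It was above WT on the scale of endothelial markers and slightly below WT in CPM of the endothelial-marker cells. Abcb1a and Ly6c1 were above WT in both rd10 libraries on the former scale and below WT in both on the latter. Tjp1 in rd10-vehicle was above WT on the former and below WT on the latter.

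Single endothelial-marker cells mostly held several of the genes. All 8 were detected in 46 of 91, 88 of 149 and 48 of 92 cells (50.5%, 59.1% and 52.2%). No WT cell held fewer than 4 of them, no rd10-vehicle cell fewer than 5, and 1 rd10-TMB cell held 2. Depth per cell differed between the libraries, so no order is read from these shares.

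Other genes of the barrier were taken from lists by function. Of 24 further transporter genes with at least 20 UMIs, 18 were lower and 6 higher in rd10-vehicle than in WT in the endothelial-marker cells, 3 of the 24 at least 1.5-fold lower and 0 at least 1.5-fold higher (8.32% and 7.40% of all genes). The list had a median log2 ratio of -0.32, against -0.02 over all genes and -0.21 over the 16 endothelial markers. In the mural-low cells 15 of 24 were lower, 6 at least 1.5-fold and 0 that much higher (12% and 11.6% of all genes), with a median of -0.25 against 0.00 over all genes. In the whole of cluster 11 the list was divided, with 11 higher, 13 lower and a median of -0.07 (all genes -0.04).

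Slc2a1, the glucose transporter GLUT1 of barrier endothelium, was at 2362 CPM in WT and 1593 in rd10-vehicle, a log2 ratio of -0.57 (-0.65 to -0.49), and at 1963 in rd10-TMB. Slc16a1, the monocarboxylate transporter MCT1, was lowest of the list with 805 and 464 CPM (-0.79, -0.93 to -0.66) and was at 541 in rd10-TMB. Slc7a5, the large neutral amino acid transporter LAT1, was at 1296, 973 and 1113 CPM, with -0.41 (-0.52 to -0.31) for rd10-vehicle over WT. These 3 genes had their lowest level in rd10-vehicle, as did Slco1a4. For rd10-TMB over rd10-vehicle the ratios were 0.30 (0.22 to 0.38) for Slc2a1, the highest of the list, 0.22 (0.07 to 0.37) for Slc16a1 and 0.19 (0.09 to 0.30) for Slc7a5.

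Some other transporters did not follow that order. Slco1c1, a thyroid hormone carrier, was at 565, 404 and 391 CPM, lower in both rd10 libraries (-0.48, -0.64 to -0.33, for rd10-vehicle over WT). The efflux pump Abcg2, at 695, 629.6 and 691 CPM (-0.14, -0.28 to -0.01), was also lowest in rd10-vehicle. Slco2b1, an organic anion transporter, was the highest of the list, at 83.5 CPM in WT and 109.6 in rd10-vehicle (0.38, 0.03 to 0.76). Slc22a8, another organic anion transporter, had the lowest ratio for rd10-TMB over rd10-vehicle, with 79.1 and 42.4 CPM (-0.88, -1.39 to -0.43). For this contrast 11 of the 24 genes were higher and 13 lower, and the median was -0.03 against -0.00 over all genes.

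Among 25 regulators of the barrier state, 20 were lower and 5 higher in rd10-vehicle than in WT in the endothelial-marker cells, 4 at least 1.5-fold lower and 0 at least 1.5-fold higher, with a median of -0.14 (all genes -0.02, endothelial markers -0.21, 8.32% of all genes 1.5-fold lower and 7.40% higher). In the whole cluster, in contrast, 17 were higher and 8 lower, with a median of 0.11, and 1 in each direction reached 1.5-fold (8.23% of all genes higher, 16.4% lower). Among mural-low cells 10 were higher, 1 at least 1.5-fold, and 14 lower, 7 at least 1.5-fold (11.6% and 12% of all genes), with a median of -0.21. Fzd4, the Norrin receptor, was in the endothelial-marker cells at 308 and 198 CPM (-0.64, -0.85 to -0.42) and at 203 in rd10-TMB. Reck, which takes part in Wnt7 reception at the endothelial surface, had the lowest ratio, with 119 and 63.3 CPM (-0.90, -1.28 to -0.53), and Foxf2, a forkhead transcription factor, the highest, with 113 and 146 CPM (0.37, 0.06 to 0.69). Lef1, a transcription factor of the Wnt pathway, was at 420.4, 405 and 452 CPM, within counting error. Axin2, a target of Wnt signalling, had the highest ratio for rd10-TMB over rd10-vehicle, with 40.7 and 65.2 CPM (0.68, 0.20 to 1.16), and Tcf7 the lowest (-0.18, -0.72 to 0.33). In that comparison 18 of 25 were higher, 1 at least 1.5-fold (5.68% of all genes), and 0 were 1.5-fold lower (6.55%), with a median of 0.05.

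Of 16 further junction genes 8 were lower and 8 higher in rd10-vehicle, 1 of the latter at least 1.5-fold (7.40% of all genes), and the median was -0.04. In the whole cluster 11 were higher and 5 lower, with a median of 0.17. Esam, an endothelial adhesion molecule, was at 510.2, 548 and 445 CPM, an order like that of Cldn5, with -0.30 (-0.45 to -0.15) for rd10-TMB over rd10-vehicle. Lsr, a tricellular junction protein, had the lowest ratio in that comparison, with 327 and 216 CPM (-0.60, -0.81 to -0.39). Jam3 and Jup had the highest and lowest ratios for rd10-vehicle over WT, 0.62 (-0.08 to 1.44) and -0.39 (-0.72 to -0.06).

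Plvap, which encodes the diaphragm protein of fenestrated and leaky endothelium, was detected in 0 of the 393 cells of cluster 11, which, at 3 counts of the total, allows a share of up to 0.763%, which limits cells with a UMI and not cells expressing the gene. In the remaining clusters 229, 261 and 191 Plvap UMIs were read, spread over most of these clusters, with 119 in the Müller glia-like cells of rd10-vehicle. The other genes of vesicles and leak gave a median of -0.19 over 10 genes for rd10-vehicle over WT in the endothelial-marker cells. That of all genes was -0.02 and that of the 16 endothelial markers -0.21. In the whole cluster the median of the list was 0.02. In the endothelial-marker cells 6 of the 10 genes were lower, and 0 reached 1.5-fold in either direction (7.40% of all genes higher, 8.32% lower). Cav1, which encodes the coat protein of caveolae, was at 151, 117 and 107 CPM (-0.37, -0.67 to -0.07, for rd10-vehicle over WT). Cavin2, another caveolar coat gene, was the lowest of the list with 879 and 634 CPM (-0.47, -0.60 to -0.35) and the highest for rd10-TMB over rd10-vehicle, with 797 CPM (0.33, 0.21 to 0.46). Lrp1, an endocytic receptor, was the highest for rd10-vehicle over WT (0.36, 0.01 to 0.74), and Fcgrt, the neonatal Fc receptor, the lowest for rd10-TMB over rd10-vehicle (-0.20, -0.40 to 0.00). Ly6a, a surface protein of the Ly6 family, was at 1823, 1895 and 1569 CPM, with 0.06 (-0.02 to 0.14) for rd10-vehicle over WT and -0.27 (-0.35 to -0.19) for rd10-TMB over rd10-vehicle. Cd59a, a complement inhibitor, had ratios of -0.30 (-0.52 to -0.08) and -0.06 (-0.30 to 0.17).

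Lists of vessel segments and of inflamed endothelium were read in the same way. These lists share genes with each other and with the lists above, such as Vcam1 (inflamed and venous) and Slc16a1 (transporter and capillary). Counts from them are thus not independent. Of 8 capillary genes 7 were lower in rd10-vehicle than in WT in the endothelial-marker cells, 4 at least 1.5-fold (8.32% of all genes), with a median of -0.60 against -0.02 over all genes. In the whole cluster 7 were also lower, 2 at least 1.5-fold, and 1 was at least 1.5-fold higher (16.4% and 8.23% of all genes), with a median of -0.34. Among mural-low cells 7 were lower, 2 at least 1.5-fold (12% of all genes), with -0.39. Car4, a carbonic anhydrase of capillary endothelium, was at 159.9 CPM in WT and 74.0 in rd10-vehicle (-1.11, -1.45 to -0.78). Rgs5, on the capillary list but best known from pericytes, was the highest, with 4183 and 5227 CPM (0.32, 0.27 to 0.37), and Rgcc the highest for rd10-TMB over rd10-vehicle (0.46, 0.33 to 0.59), for which Car4 was the lowest (-0.35, -0.79 to 0.07). Of 11 genes of inflamed endothelium 7 were higher and 4 lower in the endothelial-marker cells, with a median of 0.13. Of these 1 was at least 1.5-fold higher and 1 at least 1.5-fold lower (7.40% and 8.32% of all genes). In the whole cluster 9 of 12 were higher, 5 at least 1.5-fold, and 2 were at least 1.5-fold lower (8.23% and 16.4% of all genes). The median there was 0.40 against -0.04 over all genes. Among mural-low cells 4 were higher and 5 lower, 2 of these at least 1.5-fold (12% of all genes), with -0.02. Angpt2, a Tie2 ligand of activated endothelium, was the highest in the endothelial-marker cells, with 47 UMIs in rd10-vehicle and 16 in WT (0.83, 0.04 to 1.80), and Ctsc, a lysosomal protease gene, the lowest (-1.25, -1.86 to -0.69). For rd10-TMB over rd10-vehicle Ctsc was the highest (1.07, 0.50 to 1.67) and the adhesion molecule Vcam1 the lowest, with 112 and 75.8 CPM (-0.55, -0.93 to -0.20).

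The arterial and venous lists were mixed. Of 10 arterial genes 5 were higher and 5 lower in rd10-vehicle than in WT in the endothelial-marker cells, 0 at least 1.5-fold higher and 3 at least 1.5-fold lower (7.40% and 8.32% of all genes). The median was -0.10, and the ratios ran from Gkn3 with 14 and 11 UMIs in WT and rd10-vehicle (-0.99, -2.30 to 0.23) to the connexin gene Gja4 (0.54, 0.21 to 0.90). Gkn3, an arterial marker, was highest for rd10-TMB over rd10-vehicle, with 41 against 11 UMIs (2.34, 1.44 to 3.54), and Stmn2 lowest (-0.48, -0.98 to -0.03). Of 7 venous genes 3 were higher and 4 lower for rd10-vehicle over WT, from Tmsb10 (-0.61, -0.74 to -0.49) to Vcam1 (0.49, 0.13 to 0.88). For rd10-TMB over rd10-vehicle the range ran from Slc38a5 (-0.61, -1.06 to -0.20) to Tmsb10 (0.24, 0.11 to 0.37). Among mural-low cells 6 of 6 venous genes were lower in rd10-vehicle than in WT, 5 at least 1.5-fold, and 5 of 5 arterial genes, 3 at least 1.5-fold, where 12% of all genes were that much lower. In the whole cluster 5 of 8 venous genes were higher, with a median of 0.20, and 5 of 10 arterial genes were higher, with a median of 0.13. Of the arterial genes 4 were at least 1.5-fold higher there and 2 at least 1.5-fold lower (8.23% and 16.4% of all genes). How vessel segments were represented in the libraries, and its part in the values of the members, was not tested.

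The genes whose pattern was most like that of each member were found by Pearson correlation of log2(CPM + 1) over 42 sums of 30 or more cells by cluster and library, among 14568 genes. These sums share libraries and cell types, and the coefficients are descriptions. Gata2, an endothelial transcription factor, was among the 3 closest genes for Cldn5, Cdh5, Abcb1a and Ly6c1, at 0.96, 0.98, 0.96 and 0.95. For Cldn5 Tmem252 and Casq2 followed, for Cdh5 Ccm2l and Gimap8, and for Abcb1a Paqr5 and Ccm2l. Ocln was closest to Slco1a4 (0.89), A4galt and Adgrl4, and Tjp1 to Vwf (0.80), Ecm2 and Sik1. Slco1a4 was closest to Cspg4 (0.95), Phldb2 and Sema3c, and Ly6c1 to Higd1b (0.95), with Gata2 and Adgrl4 next. Cspg4 and Higd1b are on the mural list, whose genes were read in cluster 11 as given above. Mfsd2a was closest to Ccdc80 (0.95), Ptpn14 and Cavin1.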

How the data were processed

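Retinas had been dissociated with papain, and each group was sequenced as 1 pooled 10x Genomics v3 library. Per the methods of the study, the authors mapped reads to mm10 (Cell Ranger 6.0.1), merged libraries in Cumulus, where Scrublet took doublets out, kept cells of 500 or more genes (Seurat 3.2.2) and clustered after a Harmony correction. The values of the deposited matrix are on a natural log scale, ln(1 + x), with x in UMIs per 10000 of the cell. The authors' cell table gives counts of UMIs and genes per cell with library and cluster number. The cell totals turned 100% of 32620606 entries back into whole UMIs (tolerance 0.001), and 15242 of 15242 cells matched their deposited total. There were 25 cell barcodes that occurred in more than 1 library. Neither a cell filter nor a doublet caller was added.

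UMIs were summed by cluster and library and divided by their total (python 3.11.15, numpy 2.4.6, scipy 1.17.1). Intervals are exact at the 95% level (Poisson for sums, Clopper-Pearson for shares, conditional for ratios) and cover counting error only. Log2 ratios used a pseudocount of 1 UMI. Genes with 20 or more UMIs over both libraries were set against the 1.5-fold limit. A count of 0 was taken to allow up to 3 counts. The libraries held 18882951 to 37002532 UMIs. A cluster was given the name of a cell type with the ending "-like" if 3 or more of its markers exceeded the remaining cells 2-fold and 20 CPM and 1 or more belonged to the 10 genes of highest fold. Names were rebuilt here, and the authors' MAST tests over cells are not used. The members and the gene lists were chosen with earlier results of these data known. Genes were named by a rule: the 8 members, 13 listed barrier genes if they had 20 or more UMIs in cluster 11, the highest and lowest ratio in each of 9 lists for rd10-vehicle over WT and rd10-TMB over rd10-vehicle, and the 3 genes most alike to each member. Plvap and Abcb1b fell under that minimum and are named for their low counts, a choice made after their values were seen. Neto1 was named likewise. Ly6c2 was not analysed here. 1 of the genes that this rule would name is not reported here. The scripts were tested on simulated counts. Coordinates and promoters follow RefSeq on GRCm38.p6, transcripts and strands GENCODE vM21.

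Alternatives concerned the scaling (size factors, no mitochondrial or ribosomal genes in the total, a mean of cell values), the pseudocount (0.1), the cells (1000 genes, at most 10% mitochondrial UMIs, the 5% deepest left out, WT cells typed female by Xist, no mural or few endothelial UMIs), depth (1000 UMIs per cell) and the limits on UMIs and fold. Combinations with endothelial-marker cells, the mural-low and mural-rich sets and scaling to endothelial markers were added after the data had been seen.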

Additional observations from a re-analysis of the deposited data

How the results depend on the processing

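No paired analysis was possible because each group is 1 library, and for the same reason no replicate could be left out. In cluster 11 as clustered, the median log2 ratio of the 8 genes was 0.20 for rd10-vehicle over WT, 0.01 for rd10-TMB over rd10-vehicle and 0.18 for rd10-TMB over WT, and 0 genes were past 1.5-fold in any of them. The median for rd10-vehicle over WT became 0.45 as the mean over cells, -0.01 for cells with at most 10% mitochondrial UMIs, 0.39 without the deepest 5% of cells, 0.35 after thinning and 0.61 without cells of 2 or more mural UMIs. The last leaves 70, 20 and 23 cells, of which 25, 13 and 15 carried endothelial markers, and among these alone the median was 0.08 (0.12 for rd10-TMB over WT). The number of genes 1.5-fold higher became 2, 1, 2 and 5 for the mean over cells, the deepest cells, thinning and mural UMIs, where 14.5%, 10.2%, 18.1% and 19.0% of all genes were that much higher. For rd10-TMB over WT the median became -0.05 with the mitochondrial limit and 0.71 without mural UMIs, with 1 gene higher after thinning and 6 without mural UMIs (17.2% and 19.2% of all genes). For rd10-TMB over rd10-vehicle 1 gene was 1.5-fold lower after thinning and 1 without mural UMIs (11.5% and 11.1%).

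In the endothelial-marker cells the medians for rd10-vehicle over WT and rd10-TMB over WT were -0.09 and -0.11. There they were -0.06 and -0.08 with size factors, -0.06 and -0.17 as means over cells, -0.10 and -0.10 without mitochondrial and ribosomal protein genes, -0.11 and -0.16 after thinning, 0.05 and -0.01 with WT cells typed female, and 0.01 and -0.10 without the deepest cells. Genes 1.5-fold lower numbered 1 for the mean over cells (rd10-vehicle over WT), 1 and 1 after thinning, and 1 and 2 without mural UMIs, where rd10-TMB over rd10-vehicle had 1, against 11.8% to 17.6% of all genes in these settings. In mural-low cells the median for rd10-vehicle over WT was 0.06, with 1 gene lower there and 1 for rd10-TMB over rd10-vehicle, and in mural-rich cells it was 0.01, and -0.06 for rd10-TMB over WT. The causes were not tested. All 8 genes stayed at least 2-fold above the rest of the cells in every alternative run.

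For rd10-vehicle over WT, Cldn5 was above 0 in 12 of 12 settings of the whole cluster (0.33 to 0.89) and 10 of 10 of the endothelial-marker cells (0.13 to 0.36). Slco1a4 was below 0 in 11 of 12 (-0.35 to 0.02) and 10 of 10 (-0.71 to -0.15). Mfsd2a was above 0 in 12 of 12 (0.35 to 0.92) and 9 of 10 (-0.07 to 0.34), and in the Müller glia-like cells between 1.67 and 2.70. With a minimum of 100 UMIs, 5.97% of genes in cluster 11 were 1.5-fold higher in rd10-vehicle than in WT and 8.38% lower. The settings share cells and are not independent. Depth limits Ocln, with 168 UMIs in rd10-TMB, and every mural-low value.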
